A study of Mus musculus with 18 samples.

Results

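The potassium channel genes of the mouse whole brain were taken as the genes whose array probe set carried exactly 1 gene symbol starting with Kcn but not Kcnip. The rule found 155 probe sets for 80 of 18193 genes on the array, and each gene was represented by the probe set with the highest mean signal over all 18 arrays. The 80 genes comprised 13 voltage-gated pore subunits of the Kcna, Kcnc and Kcnd groups, 9 silent or modifier subunits, 6 Kcnh genes, 3 Kcnq genes, 8 calcium- or sodium-activated channels, 15 inward rectifiers, 12 2-pore channels, 11 auxiliary subunits and 3 noncoding transcripts named after channel genes. A filter on low signal left 62 of them for testing, among 13070 genes tested in all.

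Potassium channels let potassium leave the cell and so set the resting potential, end the action potential and time repetitive firing. Voltage-gated subunits open on depolarisation, inward rectifiers pass current best near the resting potential, 2-pore channels carry the background leak, and auxiliary subunits change the gating or surface delivery of pore subunits. In the brain many of these genes are used by particular regions and cell types: fast delayed rectifiers such as Kcnc1 in cerebellar and other fast-spiking neurons, Kcnj10 in astrocytes, and Kcnj13 with Kcne2 in the epithelium of the choroid plexus.

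The study compared whole brains of 8-week-old C57BL/6 mice labelled ERalphaKO, ERbetaKO and WT, the knockout labels naming the estrogen receptor that was targeted. Each genotype had 3 female and 3 male samples, 1 Affymetrix array each, and the values are linear MAS5 signals. The labels name no treatment and do not describe the knockout alleles. Nothing in them says that the samples of a group came from separate animals, so the spread behind each p-value may be partly technical.

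The transcripts of the targeted genes were examined first. Esr2, encoding estrogen receptor beta, had 271 ± 98 signal units on the ERbetaKO-labelled arrays and 28.7 ± 11.4 on the WT arrays (SD, n = 6 each; exact two-sided permutation p = 0.002165, the smallest that 6 against 6 arrays allow). The Esr2 signal was thus higher, not lower, on the arrays labelled as lacking the receptor, and every direction given for these arrays rests on the labels. Of 3 Esr1 probe sets, 1 had 230 ± 52 on the ERalphaKO-labelled and 141 ± 51 on the WT arrays (exact permutation p = 0.01732), another had 65.0 ± 20.6 and 38.6 ± 16.5 (exact permutation p = 0.04545), and no Esr1 probe set was lower on ERalphaKO-labelled arrays than on WT arrays past an unadjusted p of 0.05. The third was lower on ERalphaKO-labelled than on ERbetaKO-labelled arrays (129 ± 22 against 197 ± 25; exact permutation p = 0.002165) and had 143 ± 36 on WT arrays. Where these probes lie relative to the deleted parts is not given in the sources used here, so they check the labels only in part. Xist separated 9 female from 9 male arrays without overlap (3916 or more against 449 or less).

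The amount of cerebellum differed between arrays. Pcp2, a Purkinje cell marker, was under 500 on 2 ERalphaKO-labelled, 3 ERbetaKO-labelled and 2 WT arrays and reached 10790 on another WT array. The median difference of the cerebellar granule cell markers was -1.03 log2 units between ERbetaKO-labelled and WT arrays, against 0.08 between ERalphaKO-labelled and WT arrays, and none of the 8 tested markers passed the test in either comparison. The ratio of 3′ to 5′ Actb control probe sets, a sign of RNA quality, was 1.28 ± 0.08 on ERalphaKO-labelled, 1.48 ± 0.18 on ERbetaKO-labelled and 1.20 ± 0.02 on WT arrays (SD, n = 6 each). Of 9 activity-induced genes, 8 were higher on ERalphaKO-labelled and 9 on ERbetaKO-labelled than on WT arrays at an adjusted p of 0.05 in limma. Of all genes, 3.08% and 2.9% were. Fos rose by 1.65 and 1.71 log2 units. In whole brain, fewer cells of a type and less RNA per cell cannot be told apart. The activity-induced genes moved with genotype, while arrays with little cerebellum occurred in all 3 genotypes. The Actb ratio was 1.342 to 1.84 on ERbetaKO-labelled and 1.174 to 1.228 on WT arrays, without overlap, and ERalphaKO-labelled arrays overlapped both. In ERbetaKO-labelled against WT arrays the genotype and the ratio therefore cannot be told apart by a covariate. The calls below are given with fits that take the cerebellar score or the Actb ratio as a covariate where those end a call.

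Few channel genes differed between genotypes. In the limma fit on log2(signal + 63.63), with Benjamini-Hochberg adjustment over all 13070 genes at 0.05, 2 of 62 channel genes passed between ERalphaKO-labelled and WT arrays, 1 higher and 1 lower, or 3.23% where 6.71% of all genes passed (3.08% higher and 3.63% lower). Between ERbetaKO-labelled and WT arrays 6 of 62 passed, 4 higher and 2 lower, or 9.68% against 7.51% of all genes (2.9% higher and 4.61% lower). Between ERalphaKO-labelled and ERbetaKO-labelled arrays 6 of 62 passed, 4 higher and 2 lower, or 9.68% against 15.4% of all genes (6.31% higher and 9.1% lower), and no channel gene had wholly separated groups (5.85% of all genes did). Both knockout comparisons share the WT arrays. Median differences over the 62 genes were -0.06 log2 units for ERalphaKO-labelled and 0.06 for ERbetaKO-labelled against WT arrays, beside -0.03 and 0.005 over all genes. At an unadjusted p under 0.05, 8, 14 and 15 of 62 channel genes passed in the 3 comparisons, where 23.3%, 25.4% and 32.1% of all genes did. Differences over 0.5 log2 units in absolute size numbered 3, 7 and 7 of 62 in these comparisons, or 4.84%, 11.3% and 11.3%, beside 2.28%, 3.70% and 5.78% of all genes.

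**Figure D1:**
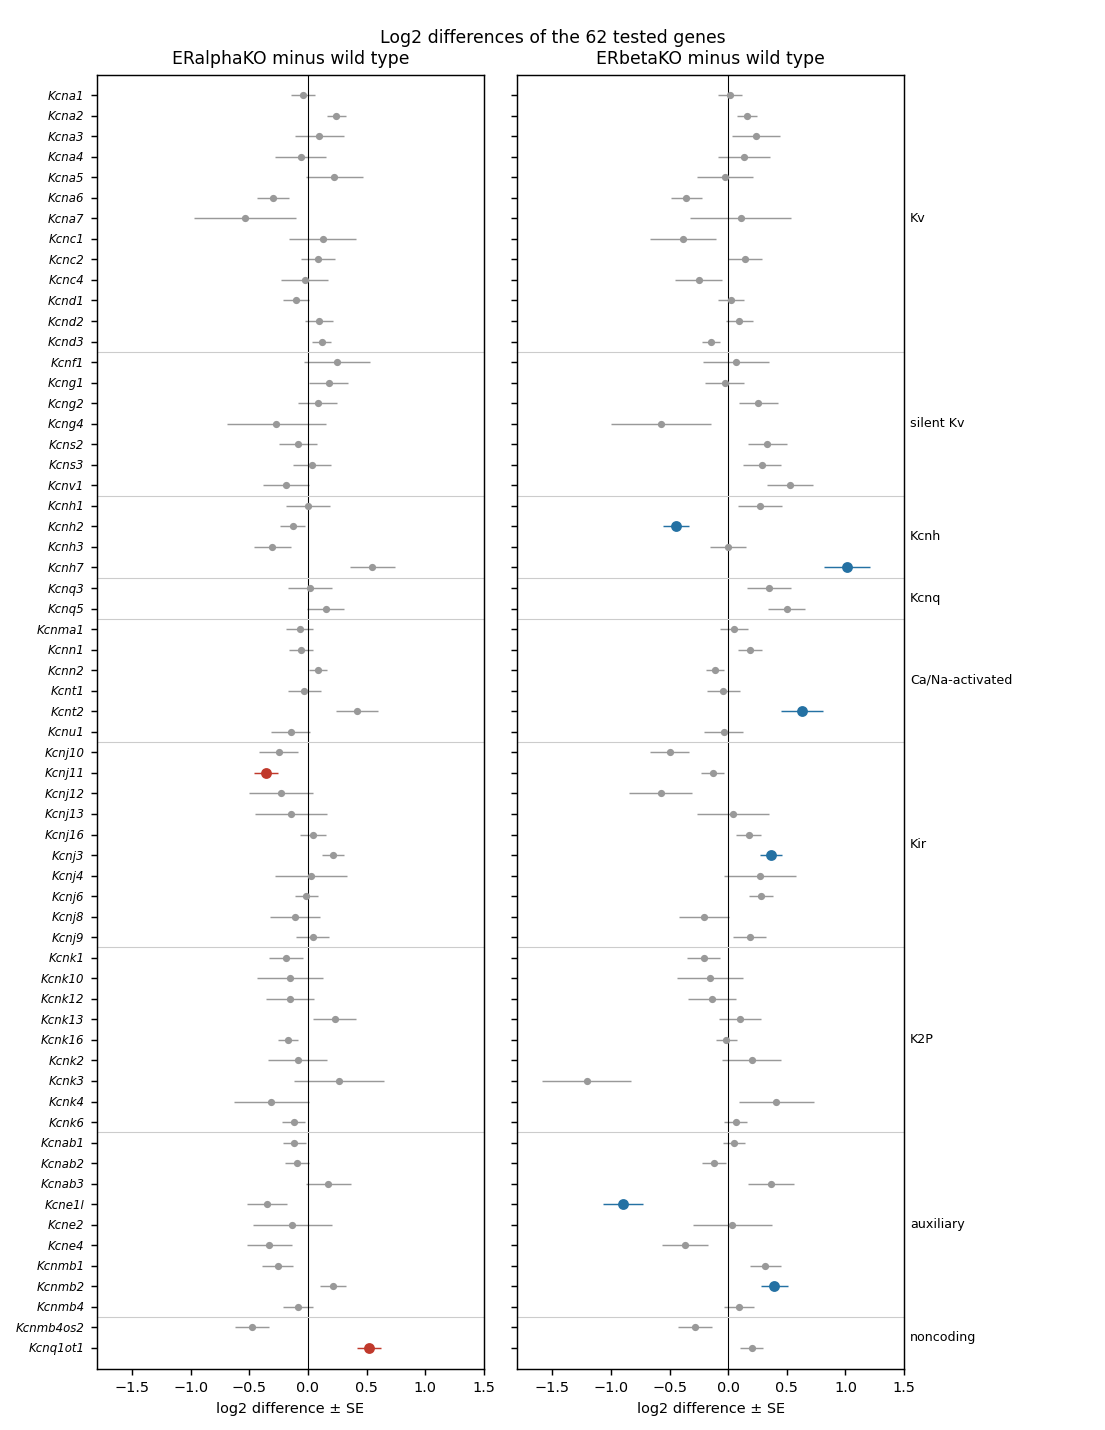
Log2 differences with standard errors for the 62 tested channel genes, grouped by family, for ERalphaKO-labelled minus WT arrays (left) and ERbetaKO-labelled minus WT arrays (right). Coloured points passed the adjusted p of 0.05: Kcnj11 and Kcnq1ot1 on the left, and Kcnh7, Kcnh2, Kcnt2, Kcnj3, Kcne1l and Kcnmb2 on the right.

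The Kcnh family, the ether-a-go-go channels, held the gene with the widest difference from WT among those called. Kcnh7, an erg-type channel with slow deactivation that is expressed mainly in neurons, had signals of 218.1, 367.4 and 424.8 (lowest, median, highest) on ERbetaKO-labelled arrays and 81.64, 147.6 and 251.9 on WT arrays. All 6 ERbetaKO-labelled arrays lay above the WT median, and the ranges overlapped only through the lowest ERbetaKO-labelled array. The difference was 1.01 ± 0.19 log2 units (SE; adjusted p = 0.00637), 0.79 in females and 1.24 in males, and it kept its direction and passed in each of 24 alternative fits, with 1.554 log2 units when the Actb ratio was a covariate (adjusted p = 0.0240). On ERalphaKO-labelled arrays Kcnh7 ranged between 133.2 and 318.2, and its difference of 0.55 log2 units from WT did not pass (adjusted p = 0.0954). Kcnh2, the erg channel of cardiac repolarisation that is also present in neurons, was lower on ERbetaKO-labelled arrays, at 483.8, 563.2 and 696.6, against 551.3, 856.5 and 961.8 on WT arrays. The ranges overlapped in part, with all 6 ERbetaKO-labelled arrays under the WT median. Its difference was -0.44 ± 0.11 log2 units (adjusted p = 0.0237), and it was no longer called without WT female 2, WT male 1 or ERbetaKO-labelled male 1 (adjusted p up to 0.0634), over the 11 arrays with Pcp2 of 500 or more (-0.54, adjusted p = 0.0510) or with the Actb covariate (-0.61, adjusted p = 0.135). Kcnh1 (median 2370 on ERbetaKO-labelled and 1818 on WT arrays) and Kcnh3 (2868 and 3039) did not pass. Kcnh5, which lies 14 annotated genes from Esr2 on chromosome 12, had a median of 104.8 on ERbetaKO-labelled and 73.8 on WT arrays. It fell under the filter, as did Kcnh8.

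The upstream sequences of 4 genes called on ERbetaKO-labelled arrays are shown because the study's genotypes concern estrogen receptors, whose binding motif was searched for in them. They are the 250 bases before the annotated start in RefSeq's GRCm38.p6 table, which held a promoter for 60 of the 80 genes, 5′ to 3′ on the strand of the gene. The windows of Kcnt2 and Kcnmb2, also called on ERbetaKO-labelled arrays, are not printed, and no GC box was matched in them. Capitals mark GC boxes (GGGCGG on either strand).
Kcnh7 (chr2:63184288-63184537, minus strand): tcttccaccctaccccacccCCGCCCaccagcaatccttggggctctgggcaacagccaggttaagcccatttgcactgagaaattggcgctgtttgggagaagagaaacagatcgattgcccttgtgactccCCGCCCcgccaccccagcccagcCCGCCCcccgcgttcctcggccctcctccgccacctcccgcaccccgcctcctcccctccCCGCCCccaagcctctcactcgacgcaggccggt
Kcnh2 (chr5:24329592-24329841, minus strand): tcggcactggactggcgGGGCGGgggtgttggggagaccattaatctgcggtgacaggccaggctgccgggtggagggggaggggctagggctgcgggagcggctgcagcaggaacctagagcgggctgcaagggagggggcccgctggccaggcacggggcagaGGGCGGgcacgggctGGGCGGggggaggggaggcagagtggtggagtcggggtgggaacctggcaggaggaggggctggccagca
Kcne1l (chrX:142306199-142306448, minus strand): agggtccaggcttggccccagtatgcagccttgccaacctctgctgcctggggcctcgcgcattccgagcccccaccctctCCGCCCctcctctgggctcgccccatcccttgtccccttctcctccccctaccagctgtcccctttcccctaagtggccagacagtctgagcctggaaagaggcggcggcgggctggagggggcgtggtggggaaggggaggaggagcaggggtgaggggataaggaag
Kcnj3 (chr2:55435720-55435969, plus strand): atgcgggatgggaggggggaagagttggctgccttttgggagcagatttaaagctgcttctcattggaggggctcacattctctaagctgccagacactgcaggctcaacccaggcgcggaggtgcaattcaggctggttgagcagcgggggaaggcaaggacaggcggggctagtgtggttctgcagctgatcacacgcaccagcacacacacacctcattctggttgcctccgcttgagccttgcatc

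The estrogen response element, GGTCA followed by its reverse complement TGACC with 3 bases between them, searched on both strands, had no match in any of the 80 promoter windows of these 60 genes, where 0.0639% of 32851 windows of all genes held it. The single element AGGTCA, which overlaps it in part, was matched in 4 of 80 windows, or 5%, beside 14% of all windows, and those 4 genes, Kcnf1, Kcnh1, Kcnj16 and Kcnk10, were not called on their main probe sets in any genotype comparison. GC boxes were matched in 37 of 80 windows, or 46.2%, beside 32.7% of all windows, and the windows of the channel genes had a median GC content of 58.6% beside 52.4%. A match is a description of these letters and not of a site in use.

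**Figure D2:**
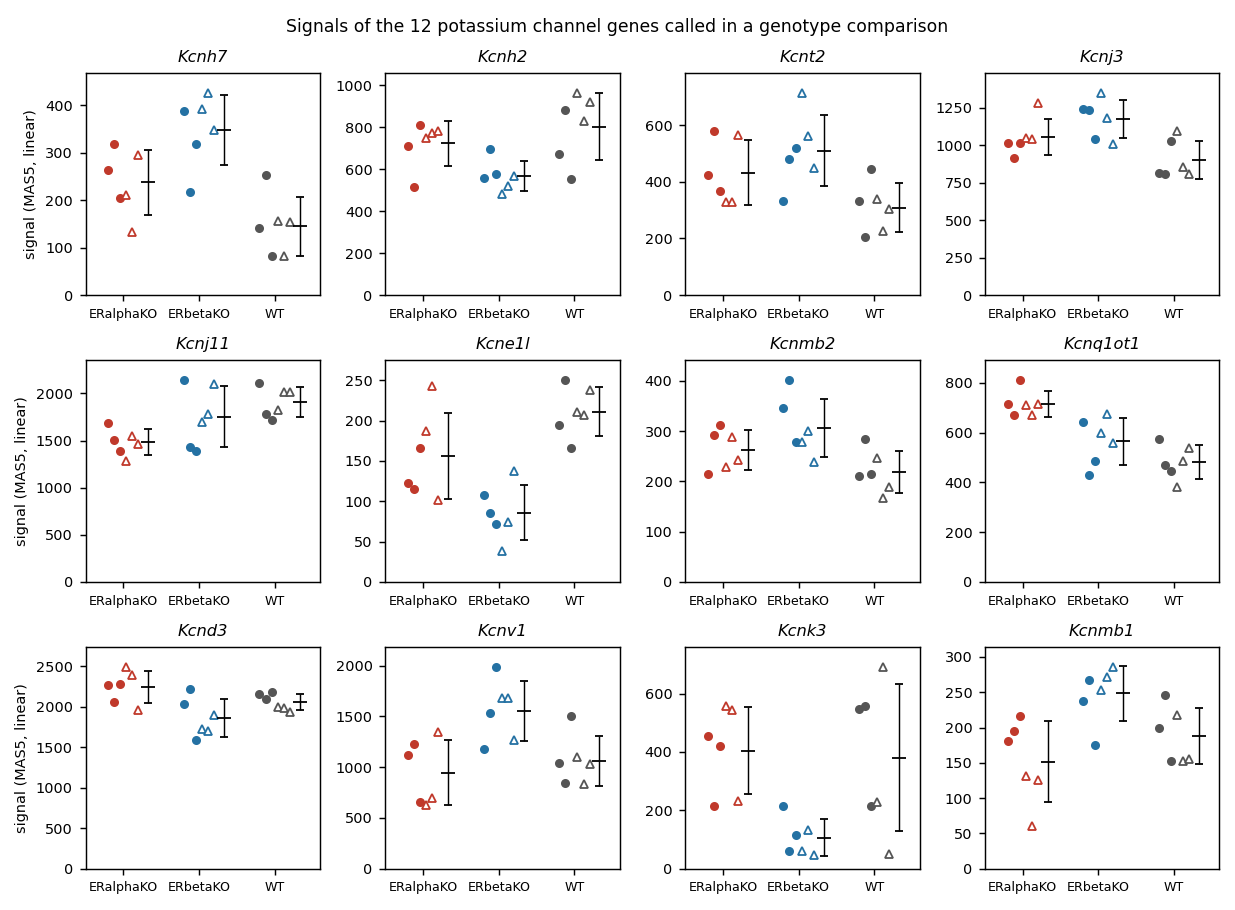
Linear MAS5 signals of the 12 channel genes called in a genotype comparison, 1 panel a gene, with ERalphaKO-labelled, ERbetaKO-labelled and WT arrays side by side. Filled circles are females, open triangles are males, and the bars give the mean ± SD of 6 arrays. Kcne1l and Kcnj11 have a knockout group wholly below WT, Kcnq1ot1 has one wholly above WT, and the other panels overlap.

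Among the 13 voltage-gated pore subunits, none passed against WT in either knockout on its main probe set. Kcna1 and Kcnd2, a fast delayed rectifier and an A-type subunit, had medians of 4285 and 3575 on ERalphaKO-labelled, 4223 and 3538 on ERbetaKO-labelled and 4190 and 3435 on WT arrays. Kcnd3, another A-type subunit, had 1964, 2278 and 2492 on ERalphaKO-labelled arrays and 1588, 1814 and 2226 on ERbetaKO-labelled arrays, with WT arrays at 1934 to 2184. It was higher on ERalphaKO-labelled than on ERbetaKO-labelled arrays by 0.26 ± 0.08 log2 units (adjusted p = 0.0331). Neither group's difference from WT passed on this probe set (0.12 and -0.15, adjusted p = 0.396 and 0.251). The call was lost when ERalphaKO-labelled female 1 or 3 or male 1 or 2, or ERbetaKO-labelled female 3 or male 1 or 2, was left out (adjusted p up to 0.0850), under quantile normalization and with only the groups compared. Kcna2, a delayed rectifier of axons, was 0.24 log2 units higher on ERalphaKO-labelled arrays without passing (adjusted p = 0.0825). The largest uncalled differences in this group were -0.54 for Kcna7 on ERalphaKO-labelled arrays (adjusted p = 0.486) and -0.38 for Kcnc1 on ERbetaKO-labelled arrays (adjusted p = 0.424). Kcnc2 had medians of 1909, 2020 and 1895 on ERalphaKO-labelled, ERbetaKO-labelled and WT arrays.

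The silent subunits, which do not form channels alone and change those they join, gave 1 call among the 7 tested. Kcnv1 was lower on ERalphaKO-labelled arrays (627.7, 907.7 and 1351) than on ERbetaKO-labelled arrays (1177, 1606 and 1985), and WT arrays were at 834.8, 1040 and 1504. The difference between the knockouts was -0.72 ± 0.20 log2 units (adjusted p = 0.0236), 6 of 6 ERalphaKO-labelled arrays lying below the ERbetaKO-labelled median. It was lost when ERalphaKO-labelled female 3 or male 1 or 2, or ERbetaKO-labelled female 3 or male 2, was left out (adjusted p up to 0.0631), likewise under the Actb covariate (-0.81, adjusted p = 0.0972), and against WT the differences were -0.19 and 0.53 (adjusted p = 0.607 and 0.107). In a limma fit over all non-control probe sets, the other Kcnv1 probe sets differed by -0.41 and -0.33 between the knockouts without passing (adjusted p = 0.176 and 0.336). Against WT they differed by 0.07 and 0.13 on ERalphaKO-labelled and by 0.48 and 0.46 on ERbetaKO-labelled arrays, none passing. The largest uncalled differences were those of Kcng4, at -0.27 and -0.57 against WT (adjusted p = 0.748 and 0.424). Kcns2, the other member of highest signal here, differed from WT by -0.09 and 0.33 without passing (adjusted p = 0.801 and 0.211). Kcnv2 fell under the filter. In a limma fit over all 45037 non-control probe sets it was higher on ERbetaKO-labelled than on WT arrays (148.4 ± 28.8 against 97.1 ± 15.5, adjusted p = 0.0461). There it was also lower on ERalphaKO-labelled than on ERbetaKO-labelled arrays (-0.35 log2 units, adjusted p = 0.0434). Of all probe sets 3.59% and 9.43% passed in these comparisons. Of the M-current genes, which hold back repetitive firing, Kcnq3 differed by 0.02 and 0.35 and Kcnq5 by 0.15 and 0.50 log2 units in ERalphaKO-labelled and ERbetaKO-labelled arrays against WT, and none passed (adjusted p for Kcnq5 = 0.609 and 0.0632).

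In the calcium- and sodium-activated group, Kcnt2, the sodium-activated channel known as Slick, was higher on ERbetaKO-labelled arrays. Its signals were 333.1, 500.8 and 712.7 on ERbetaKO-labelled and 205.7, 317.4 and 444.2 on WT arrays, overlapping, with 6 of 6 ERbetaKO-labelled arrays over the WT median. The difference was 0.63 ± 0.18 log2 units (adjusted p = 0.0417) and was lost when ERbetaKO-labelled female 2 or 3 or male 1 or 2, or WT female 1 or 2 or male 2 or 3, was left out (adjusted p up to 0.104). It was 0.51 over the arrays with Pcp2 of 500 or more (adjusted p = 0.162) and 0.63 with the Actb covariate (adjusted p = 0.356), and was also lost under quantile normalization, without a filter and with only the groups compared. On ERalphaKO-labelled arrays it was 0.42 (adjusted p = 0.164). Kcnma1, the large-conductance calcium-activated channel, differed by -0.07 and 0.05, and Kcnt1, its sodium-activated relative, by -0.03 and -0.04 log2 units; neither passed. Of the small-conductance calcium-activated channels, Kcnn1 differed by -0.06 and 0.19 and Kcnn2 by 0.09 and -0.11 without passing, and Kcnn3 did not reach the filter.

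Among 15 inward rectifiers, 10 were tested. Kcnj3, a subunit of the G protein-gated channel opened by inhibitory transmitter receptors, had 1008, 1205 and 1345 on ERbetaKO-labelled and 807.6, 834.5 and 1094 on WT arrays. The ranges overlapped, and all 6 ERbetaKO-labelled arrays lay over the WT median. It rose by 0.36 ± 0.10 log2 units (adjusted p = 0.0304), 0.39 in females and 0.34 in males, and was lost when ERbetaKO-labelled female 1 or 2 or male 1 or 2, or WT female 1 or 2 or male 2 or 3, was left out (adjusted p up to 0.0820), with only the groups compared, over the arrays with Pcp2 of 500 or more (0.37, adjusted p = 0.106) and with the Actb covariate (0.42, adjusted p = 0.246). A second Kcnj3 probe set lay wholly above WT on ERbetaKO-labelled arrays, at 997 ± 71 against 698 ± 85 (SD, n = 6 each; adjusted p = 0.0190 in a limma fit over all 45037 non-control probe sets, of which 3.59% passed), while the other 2 had differences of 0.20 and 0.07 that did not pass (adjusted p = 0.302 and 0.852). Its partners Kcnj6 and Kcnj9 had main-probe differences of 0.28 and 0.18 on ERbetaKO-labelled arrays that did not pass (adjusted p = 0.0929 and 0.448). Kcnj11, the pore of the ATP-sensitive channel that couples metabolism to excitability, had 1284, 1482 and 1688 on ERalphaKO-labelled and 1718, 1920 and 2116 on WT arrays, with no overlap. It fell by 0.36 log2 units (SE 0.10; adjusted p = 0.0446), but was no longer called when any of the 12 arrays other than ERalphaKO-labelled female 1 was left out (adjusted p up to 0.102), over the arrays with Pcp2 of 500 or more (-0.38, adjusted p = 0.107) and with the Actb covariate (-0.29, adjusted p = 0.129), as well as without a filter or without the intensity trend. A second, weaker Kcnj11 probe set had 171.3 ± 52.2 on ERalphaKO-labelled and 184.4 ± 28.2 on WT arrays. Its difference of -0.10 did not pass (adjusted p = 0.7825 in the fit over all probe sets). Abcc8, the regulatory partner of Kcnj11, differed from WT by -0.07 on ERalphaKO-labelled arrays without passing (adjusted p = 0.763).

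Kcnj10, the astrocyte inward rectifier that buffers potassium, had 1118, 1207 and 1810 on ERbetaKO-labelled and 1292, 2100 and 2373 on WT arrays, a difference of -0.50 log2 units that did not pass (adjusted p = 0.0759). On the same arrays Gfap, an astrocyte marker, was at 961.8, 1098 and 1609, against 2472, 2802 and 3470 on WT arrays, and fell by 1.23 log2 units (adjusted p = 0.000188), while of the 10 astrocyte markers 1 passed. Kcnj16, the astrocyte partner of Kcnj10, was at medians of 477.1 on ERbetaKO-labelled and 436.5 on WT arrays. Its second probe set lay the other way without passing, at 294.5 ± 64.3 and 378.3 ± 68.2 (-0.31 log2 units, adjusted p = 0.248 in the fit over all probe sets). The largest uncalled difference of the family was -0.58 for Kcnj12 on ERbetaKO-labelled arrays (adjusted p = 0.195). Kcnj8, the ATP-sensitive channel pore of mural cells, differed from WT by -0.11 and -0.21 in the ERalphaKO-labelled and ERbetaKO-labelled arrays without passing, and its partner Abcc9 rose by 0.41 log2 units on ERbetaKO-labelled arrays (603.6 ± 76.5 against 439 ± 47, SD, n = 6 each; adjusted p = 0.0227).

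Of the 2-pore channels, Kcnk3 alone was called, in ERalphaKO-labelled against ERbetaKO-labelled arrays. Kcnk3, an acid-sensitive leak channel, was at 214.1, 438.5 and 559.1 on ERalphaKO-labelled, 47.8, 89.4 and 214.4 on ERbetaKO-labelled and 49.0, 386.5 and 690.7 on WT arrays. The WT arrays spanned nearly the whole range of both knockouts, and the 2 knockouts met only at 214. The difference between the knockouts was 1.47 ± 0.38 log2 units (adjusted p = 0.0190), higher in 6 of 6 ERalphaKO-labelled arrays than the ERbetaKO-labelled median. Against WT, ERbetaKO-labelled arrays were 1.21 log2 units lower without passing (adjusted p = 0.0631). With the cerebellar score as a covariate this became -0.84 with adjusted p = 0.0114, and over the 11 arrays with Pcp2 of 500 or more it was -1.40 with adjusted p = 0.0464. With the Actb ratio as a covariate, Kcnk3 was called in neither comparison. Kcnk1 and Kcnk2, the members of highest signal in the family, differed from WT by -0.19 and -0.09 in ERalphaKO-labelled and by -0.21 and 0.20 in ERbetaKO-labelled arrays and did not pass. The largest uncalled difference in ERalphaKO-labelled arrays was that of Kcnk4, at -0.31 (adjusted p = 0.598).

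Among auxiliary subunits, Kcne1l, a small single-pass subunit of the Kcne family that holds back currents of voltage-gated channels, had 38.6, 79.8 and 137.4 on ERbetaKO-labelled arrays and 165.8, 208.4 and 250 on WT arrays, with no overlap. It fell by 0.90 log2 units (SE 0.17; adjusted p = 0.00581) in ERbetaKO-labelled arrays, by 0.81 in females and 0.99 in males. The call was lost over the arrays with Pcp2 of 500 or more (-0.72, adjusted p = 0.0779) and with the Actb covariate (-1.12, adjusted p = 0.0887). Kcne1l was the single channel gene of 62 with wholly separated groups in that comparison (1.61%, where 4.09% of all genes separated). In ERalphaKO-labelled arrays it lay between, at 102.0, 144.8 and 242.7, 0.35 log2 units below WT without passing (adjusted p = 0.227), and it was 0.55 above the ERbetaKO-labelled arrays (adjusted p = 0.0380), a call lost when ERalphaKO-labelled female 1 or 3 or male 1 or 2, or ERbetaKO-labelled female 2 or 3 or male 1 or 2, was left out (adjusted p up to 0.103), over the arrays with Pcp2 of 500 or more (0.50, adjusted p = 0.0992) or with the Actb covariate (0.70, adjusted p = 0.0903), or with only the groups compared. Kcnmb2, a subunit that inactivates large-conductance calcium-activated channels, had 239.1, 289.4 and 401.1 on ERbetaKO-labelled and 167.6, 212.3 and 284.1 on WT arrays. All 6 ERbetaKO-labelled arrays lay over the WT median, and the groups overlapped. The rise was 0.39 ± 0.11 log2 units (adjusted p = 0.0470) and was lost when ERbetaKO-labelled female 1 or 2 or male 1 or 2, or WT female 1 or 3 or male 2 or 3, was left out (adjusted p up to 0.102). It was 0.36 over the arrays with Pcp2 of 500 or more (adjusted p = 0.316) and 0.18 with the Actb covariate (adjusted p = 0.701), and was also lost under quantile normalization, without a filter and with only the groups compared. A second Kcnmb2 probe set was 0.34 higher without passing (adjusted p = 0.174 in the limma fit over all non-control probe sets). Kcnmb1, the smooth-muscle form of this subunit, was lower on ERalphaKO-labelled (60.2, 156.2 and 215.9) than on ERbetaKO-labelled arrays (175.8, 259.9 and 285.5), a difference of -0.57 ± 0.13 log2 units (adjusted p = 0.0115), with -0.14 in females and -1.005 in males. With the Actb covariate it was -0.55 and was not called (adjusted p = 0.0969). WT arrays lay between, at 187.4 ± 39.8. Against WT, Kcnmb1 differed by -0.26 on ERalphaKO-labelled and 0.32 on ERbetaKO-labelled arrays without passing (adjusted p = 0.257 and 0.147). A weaker Kcnmb1 probe set was higher on ERbetaKO-labelled than on WT arrays, at 119.1 ± 20.2 against 54.2 ± 31.8. Its adjusted p was 0.0239 in the limma fit over all non-control probe sets, of which 3.59% passed. Kcnab1 and Kcnab2, which bind the delayed rectifiers, had no call on their main probe sets (differences of -0.12 and 0.05 for Kcnab1, -0.09 and -0.12 for Kcnab2). Kcne4 was the largest uncalled auxiliary subunit against WT on ERbetaKO-labelled arrays, at -0.37 (adjusted p = 0.246).

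The noncoding transcript Kcnq1ot1, an imprinted antisense RNA of the Kcnq1 locus, had 669.2, 714.4 and 810.8 on ERalphaKO-labelled, 430.0, 579.1 and 673.5 on ERbetaKO-labelled and 383.5, 477.0 and 572.9 on WT arrays. All ERalphaKO-labelled arrays lay above all WT arrays. The rise against WT was 0.52 ± 0.10 log2 units (adjusted p = 0.00755), 0.51 in females and 0.53 in males, and stayed called without each array (adjusted p up to 0.0226) but not over the 11 arrays with Pcp2 of 500 or more, where it was 0.56 (adjusted p = 0.0558). It was 0.32 higher than on ERbetaKO-labelled arrays (adjusted p = 0.0407), which was lost when ERalphaKO-labelled female 1 or 3 or any ERalphaKO-labelled male, or ERbetaKO-labelled female 2 or 3 or male 1 or 3, was left out (adjusted p up to 0.0915), over the arrays with Pcp2 of 500 or more (0.19, adjusted p = 0.331), under the cerebellar covariate (0.28, adjusted p = 0.0529) or the Actb covariate (0.17, adjusted p = 0.452), under quantile normalization and without a filter. In the fit over all 45037 non-control probe sets, of which 4.72% passed, other probe sets of the same transcript were also higher: 1 averaged 535 ± 43 on ERalphaKO-labelled and 248 ± 58 on WT arrays (SD, n = 6 each; 0.96 log2 units), and another averaged 340.5 ± 71.6 and 125.8 ± 32.2 (1.09 log2 units), both wholly above WT. Kcnmb4os2, the next in size, was 0.48 lower without passing (adjusted p = 0.0559). The 2 calls in this comparison, Kcnq1ot1 and Kcnj11, were also the 2 of 62 with wholly separated groups, 3.23% where 4.67% of all genes were separated.

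Other probe sets of a gene did not always follow the one with the highest signal. In the fit over all 45037 non-control probe sets, 9 of the 155 channel probe sets passed between ERalphaKO-labelled and WT arrays, all higher (5.81%, where 4.72% of all probe sets passed), and they belonged to 5 genes, Kcna2, Kcnd3, Kcnj6, Kcnma1 and Kcnq1ot1. Between ERbetaKO-labelled and WT arrays 8 passed (5.16%, where 3.59% of all did), and between the knockouts 19 passed (12.3%, where 9.43% of all did). For Kcnma1, 1 probe set was at 331.4 ± 44.7 on ERalphaKO-labelled and 204.3 ± 32.4 on WT arrays (0.56 log2 units, adjusted p = 0.00654) and a weaker one at 85.8 ± 17.02 and 35.6 ± 14.7 (0.60, adjusted p = 0.00633), both wholly above WT, while the main probe set, in the fit over genes, was at -0.07 and another at -0.50 (adjusted p = 0.0919). For Kcnj9, another probe set was lower on ERalphaKO-labelled than on ERbetaKO-labelled arrays, at 487 ± 71 and 860 ± 125 (adjusted p = 0.00657), with no overlap, while its main probe set differed by -0.14. For Kcnab1, the other probe set was wholly above WT on ERbetaKO-labelled arrays (1357 ± 135 against 983 ± 112; adjusted p = 0.00550), while its main probe set differed by 0.05. For Kcnd1, another was wholly lower on ERalphaKO-labelled than on ERbetaKO-labelled arrays, at 174 ± 29 and 276 ± 42 (adjusted p = 0.00748), and its main probe set differed by -0.13. For Kcnd3, a weaker probe set was wholly above WT on ERalphaKO-labelled arrays, at 130.6 ± 11.7 against 49.4 ± 34.8 (0.83 log2 units, adjusted p = 0.0190). Its main probe set differed by 0.12 there, and the others by 0.44 and 0.60 without passing (adjusted p = 0.0984 and 0.0779). Each such pair of probe sets reads a different stretch of the gene, whose place in the transcript is not given in the files.

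Sex gave no call. None of 62 channel genes passed between female and male arrays (0.0306% of all genes passed), and at an unadjusted p under 0.05 3 did, where 4.61% of all genes did: Kcna7 and Kcnk16 were higher in females by 0.78 and 0.20 log2 units and Kcnmb4os2 differed by -0.34. No channel gene passed a test of the difference between the female and the male genotype effect, in either knockout (0 of 13070 genes passed in limma), and at an unadjusted p under 0.05 2 did in each (where 5.16% and 3.4% of all genes did). They were Kcnj6 and Kcnmb4os2 on ERalphaKO-labelled and Kcnc4 and Kcnh2 on ERbetaKO-labelled arrays, Kcnh2 with differences from WT of -0.17 in females and -0.72 in males.

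More channel genes passed for a slope on the amount of cerebellum than in any genotype comparison. A cerebellar score, the mean log2 signal of the granule and Purkinje markers, fell into 2 clusters, 7 arrays at 8.40 to 8.58 and 11 arrays at 9.31 to 11.7, so the slope on it joins the step between them and the spread within the 11. In the 6-group fit with the score as a covariate, 24 of 62 channel genes had a slope that passed, 10 rising and 14 falling with the score, beside 15.5% of all genes (6.89% rising and 8.62% falling). The slope was read as a result after the data were seen. Kcng4, a silent subunit, rose most, with 303.7 to 1234 on the 11 arrays with more cerebellum and 174.9 to 285.9 on the 7 with little, and a slope of 0.60 ± 0.04 log2 units per unit of score (adjusted p = 2.80e-08). Kcnk3, Kcnc1, Kcnk10 and Kcnj12 followed, at 0.50, 0.40, 0.38 and 0.37. Kcnc1, the fast delayed rectifier, was at 1282 to 3569 on the arrays with more cerebellum and 1144 to 1467 on those with little. Kcnf1 fell most, at -0.38 (285.7 to 745.8 against 685.0 to 1381), followed by Kcnj4 at -0.36, Kcnk2 at -0.30, Kcna5 at -0.29 and Kcnq3 at -0.24. Within the 11 arrays with Pcp2 of 500 or more no channel gene had a slope that passed (0.497% of all genes did), and the slopes there varied. They were of like sign and size for Kcng4 (0.48), Kcnc1 (0.35), Kcnk10 (0.47), Kcnj12 (0.56) and Kcnf1 (-0.51). They were smaller for Kcna5 (-0.005), Kcnq3 (-0.12) and Kcna4 (-0.06, against -0.23 over all arrays). For Kcnj10 the slope turned sign, at -0.12 against 0.17 over all arrays. Kcnc2 was nearest to passing at -0.56 (adjusted p = 0.0587), and Kcnk3 was at 0.75 (adjusted p = 0.0761).

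**Figure D3:**
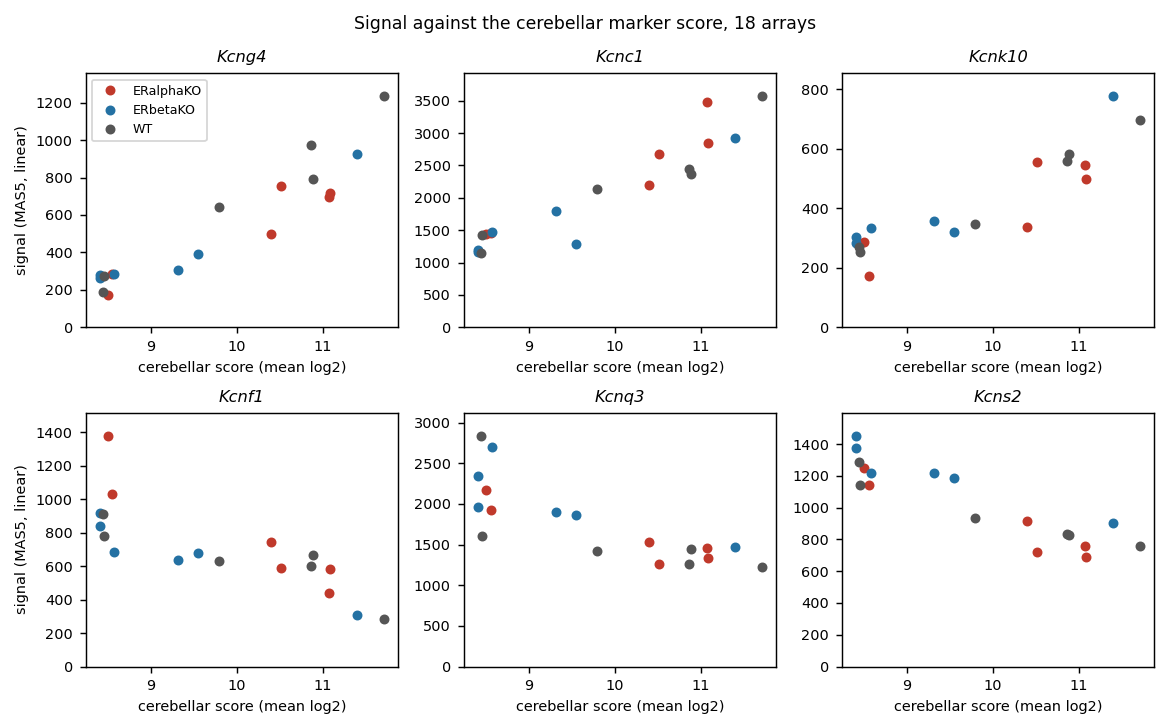
Linear signals of 6 channel genes against the cerebellar marker score of each of the 18 arrays, coloured by genotype. The 7 arrays with a score under 9 sit apart at the left; Kcng4, Kcnc1 and Kcnk10 are higher to their right and Kcnf1, Kcnq3 and Kcns2 lower.

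Kcnj13 and Kcne2, channel genes of the choroid plexus, were lowest with most of that tissue's markers on 2 male arrays. Ttr was at 836.7 on WT male 3 and 2971 on ERalphaKO-labelled male 3, against 11310 or more on the other 16 arrays. Kcnj13 was lowest on the same arrays, at 159.1 and 234.6, and Kcne2 was at 80.6 and 23.4, its lowest values. Folr1 was lowest there too, at 101.3 and 98.3. Of 9 choroid plexus markers on the array, 8 had both arrays among their 3 lowest, and Clic6 did not, at 802.5 on WT male 3 and 539.3 on ERalphaKO-labelled male 3. Neither gene passed between genotypes: Kcnj13 differed by -0.14 and 0.04 and Kcne2 by -0.13 and 0.04 log2 units in ERalphaKO-labelled and ERbetaKO-labelled arrays against WT.

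**Figure D4:**
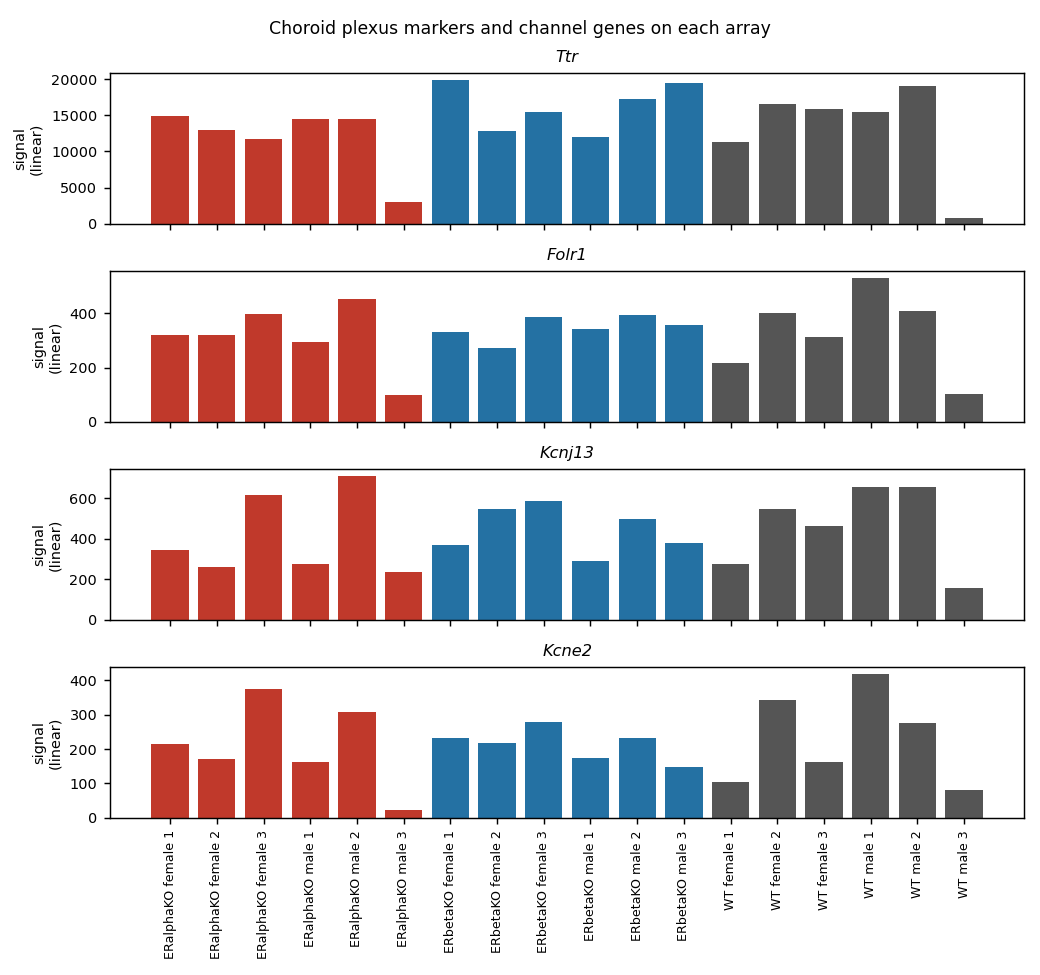
Linear signals of the choroid plexus markers Ttr and Folr1 and of the channel genes Kcnj13 and Kcne2 on the 18 arrays, 1 bar an array, with ERalphaKO-labelled, ERbetaKO-labelled and WT arrays from left to right. All 4 genes are lowest or second lowest on ERalphaKO-labelled male 3 and WT male 3.

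Proteins that bind potassium channels were read from a list beyond the channel genes. Of 23 tested, 1 passed in each comparison with WT, where 6.71% (ERalphaKO-labelled) and 7.51% (ERbetaKO-labelled) of all genes passed. Dlg4, a scaffold of excitatory synapses, passed on ERalphaKO-labelled arrays (2272 ± 336 against 3596 ± 674, SD, n = 6 each, -0.64 log2 units, adjusted p = 0.0450). Abcc9 passed on ERbetaKO-labelled arrays, as given above. Between the knockouts, 1 of 23 was higher and 1 lower, where 6.31% of all genes were higher and 9.1% lower. Pias3 was higher by 0.29 (adjusted p = 0.0302) and Kcnip3, which binds the A-type channels, was lower, with a difference of -0.36 (adjusted p = 0.0482), on ERalphaKO-labelled than on ERbetaKO-labelled arrays. Of the channel-binding Kcnip proteins none passed against WT.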

How the data were processed

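Whole brains of 8-week-old C57BL/6 mice were profiled on 18 Affymetrix mouse arrays, 3 female and 3 male samples per genotype. The deposited intensity values are linear MAS5 signals, per the submitters' processing notes, and each of the authors' arrays was scaled to a 2% trimmed mean of 500 over 45101 probe sets. The deposited table gives no detection calls, and the number of arrays limits the precision. Probe sets were named from the platform annotation, with symbols updated through RefSeq.

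Signals were transformed as log2(signal + 63.63), the 25th percentile of non-control values, so folds of weak genes are understated. The gene's probe set with the highest mean was tested if its mean reached the 40th percentile (7.58 log2 units). limma 3.58.1 in R 4.3.3 fitted a mean for each of 6 groups with an intensity trend (12 residual degrees of freedom), and all adjusted p-values are limma's. Esr1 and Esr2 were tested by exact permutation. The fits were tested on simulated data with known changes. Named genes are every called member, the 2 of highest signal and the largest uncalled difference of each family, and members of known place. Members and lists were chosen with earlier results of these data known. Deviations of same-numbered samples of different groups had a median correlation of 0.0213 (-0.486 to 0.491). For pairs with different numbers it was -0.00987 (-0.525 to 0.536). The replicate numbers thus showed no clear pairing and were not used as pairs in the main fit, though a weak pairing could be missed. Alternatives were the pseudocount, quantile normalization, filters, all probe sets, array weights, covariates, and each array left out. The description labels of the ERalphaKO samples share a run of digits in the form of a date that the others lack, and whatever it marks cannot be told apart from this genotype. Some potassium channel genes are not analysed here.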

Additional observations from a re-analysis of the deposited data

Results flagged for a closer look

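Among 36 groups of 6 arrays (12 called genes in 3 genotypes), 2 held an array far from the others, with a gap to its nearest neighbour, as a share of the group's range, over Dixon's critical value for 6 arrays; chance flags about 1 in 20 groups. Kcnh2 was 516.1 on ERalphaKO-labelled female 2, the lowest of its group, with the next at 708.5 (gap 0.694 of the range). Kcnq1ot1 was 810.8 on ERalphaKO-labelled female 3, the highest of its group, with the next at 715.8 (gap 0.651 of the range).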

How the results depend on the processing

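Of 44 named differences recomputed under up to 25 alternatives, 950 of 1079 values kept direction and side of the threshold, 107 of the called ones were no longer past it, 18 uncalled ones passed and 4 turned sign. Those 4 were not called: Kcng4 in ERalphaKO-labelled against WT arrays, 0.011 without ERalphaKO-labelled male 3 (-0.585 to 0.011 over the arrays left out); Kcnk3 there, -0.078 without WT male 3 (-0.078 to 0.608); and Kcnj11 in ERbetaKO-labelled against WT arrays, 0.075 over arrays with Pcp2 of 500 or more and 0.083 when the Actb ratio was a covariate; the cause was not tested. Called channel genes numbered, in ERalphaKO-labelled against WT arrays (2), 1 without a filter, 4 with only the groups compared, 1 with the replicate block, 0 with Pcp2 of 500 or more, 5 with the cerebellar score and 1 with the Actb ratio as covariate, and 1 to 2 without each array. Over all 13070 genes, 877 were called in this comparison in the main fit. Without a filter 664 of 18193 were, and with only the groups compared 934. The replicate block gave 732, Pcp2 of 500 or more 79, the cerebellar score 1489 and the Actb ratio 428. Leaving out each array gave 398 to 775. In ERbetaKO-labelled against WT arrays (6) called channel genes numbered 3 with a 60th percentile filter, 11 with array weights, 3 with Pcp2 of 500 or more (1 of the 6 shared), 2 with the Actb ratio (1 shared) and 2 to 7 without each array. Over all 13070 genes, 981 were called there in the main fit. The 60th percentile filter gave 936 of 9906, array weights 1550, Pcp2 of 500 or more 242 and the Actb ratio 122. Leaving out each array gave 506 to 1003. Between the knockouts (6) called channel genes numbered 3 with the 60th percentile filter, 16 with array weights, 2 with the Actb ratio and 2 to 8 without each array. Over all 13070 genes, 2015 were called there in the main fit. The 60th percentile filter gave 1369 of 9906, array weights 3831 and the Actb ratio 759. Leaving out each array gave 1189 to 2250. With the replicate block, channel gene calls numbered 5 and 4 in these 2 comparisons, beside 852 and 1830 of all 13070 genes. The replicate numbers showed no clear pairing of the samples. Channel gene counts for sex and interaction were 0 throughout. Restricting to the groups compared was not run for female against male.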
